A study of Saccharomyces cerevisiae with 4 samples.

Results

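The coding exons of intron-containing genes in budding yeast were examined as 494 regions in 242 genes. They were taken from deposited intron tables that list 793 stretches of the genome by chromosome, start and end, each with its read count. Stretches that abut, so that one ends on the base before the next begins, were joined into chains. In chains of 3, 5 or 7 stretches the odd positions are exons and the even positions introns. This gave 232 genes with 2 exons and 10 genes with 3, no gene with 4, and 252 introns between the exons. The other 47 stretches stood alone or in pairs, 23 of them matching an annotated coding exon, and were left out. Every stretch of the 242 chains had the start and end of a coding exon or intron in the RefSeq annotation of the R64 assembly (sacCer3), so exon order and strand were read from there.

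Introns are rare in *Saccharomyces cerevisiae*. Most of the genes that have one have only one, close to the start codon, and many of them encode ribosomal proteins, so that a large part of all splicing in a growing cell serves ribosome production. The spliceosome cuts at the first bases of the intron and at its last bases, and joins the first cut to a branch site inside the intron. Chd1 is a chromatin remodeller, an ATPase that slides and spaces nucleosomes along transcribed genes.

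RNA was sequenced from 2 libraries of a strain with a CHD1 deletion and from 2 libraries of the wild-type strain. Both strains have the BY4741 background. They were grown to mid-log phase at 30 °C in the rich medium YPD. The libraries came from total RNA, with a kit sold for small RNA. The labels do not say whether the 2 libraries of a genotype came from separate cultures. The p-values below therefore rest on the spread between these libraries, which may be technical. In edgeR that spread was shared over features. CHD1 itself had 7 and 3 reads in the deletion libraries and 211 and 396 reads in the wild-type libraries. The gene tables of the same libraries hold 4117998 and 2597514 reads for the deletion and 2145684 and 2824770 reads for the wild type. The 494 exons took 526120 and 331929 reads in the deletion, 12.8% of the gene table in each library, and 284958 and 391776 reads in the wild type, 13.3% and 13.9%. The 252 introns between them held 9665 and 5977 reads in the deletion and 6597 and 10354 in the wild type, far fewer than the exons. Of the reads that the gene tables give these genes, the exons held 91.4% and 92.0% in the deletion and 91.3% in each wild-type library. Exons and introns together held 93.1% and 93.7% in the deletion and 93.4% and 93.8% in the wild type. In bulk RNA, fewer cells transcribing a gene and less RNA per cell cannot be told apart.

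The exons of a gene differ strongly in size. The longest exon of each gene measured 108 to 5561 bases, with a median of 481.5, and was the last exon in 222 genes, the first in 15 and an internal one in 5. The other 252 exons measured 1 to 794 bases, with a median of 28. They made up 15834 coding bases, against 181251 in the longest exons. Of the first exons, 4 held 1 base, 4 held 2 bases, 20 held 3 bases, and 59 held 10 bases or fewer. An intron can therefore interrupt the start codon itself, as the junctions below show. They come from the 4 first exons of 1 base, 1 example each of 2 and 3 bases, and the first exon of ACT1, the actin gene. Each is printed from the R64 genome of RefSeq, 5′ to 3′ on the strand of the gene, with the whole exon in capitals and the first 12 bases of the intron in lower case.
COX5B exon 1: Agcatgtataaca
NSP1 exon 1: Agtatgtttcttt
RPL20A exon 1: Agtgagtaaatac
RPL20B exon 1: Agtatgtaataga
RPL19A exon 1: ATgtatgtgatgca
RPL30 exon 1: ATGgtcagtataaca
ACT1 exon 1: ATGGATTCTGgtatgttctagc
These exons lie at chrIX:155222-155222 (COX5B, plus strand), chrX:365784-365784 (NSP1, plus), chrXIII:754220-754220 (RPL20A, minus), chrXV:901194-901194 (RPL20B, minus), chrII:415260-415261 (RPL19A, minus), chrVII:439091-439093 (RPL30, plus) and chrVI:54687-54696 (ACT1, minus).

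In COX5B the start codon is completed by the first bases of exon 2. The next lines show the end of the intron in lower case and the first 12 bases of exon 2 in capitals for 3 of the same genes.
COX5B exon 2 start: caagttttgcagTGTTGCGTACTT
NSP1 exon 2 start: ttttaatattagTGAACTTCAATA
RPL20A exon 2 start: ttattttatcagTGGCTCACTTTA
The A of exon 1 and the TG that opens exon 2 make up the start codon in all 3. Over the 242 genes, all 234 first exons of 3 bases or more began with ATG. The length of the first exon left no remainder on division by 3 in 38.4% of genes, a remainder of 1 in 36.4% and of 2 in 25.2%. An intron thus followed a complete codon in a minority of the genes.

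The introns that border these exons shared their ends. Of 252 introns, 191 (75.8%) opened with GTATGT, 24 with GTACGT and 11 with GTAAGT, read on the strand of the gene. The last 3 bases were TAG in 51.6%, CAG in 43.3% and AAG in 4.8%. The single exception, CCG, was in HAC1, the transcription factor gene of the unfolded protein response, whose intron is removed by the nuclease Ire1 and not by the spliceosome. TACTAAC, the letters of the yeast branch site, stood somewhere in 83.3% of introns and in 5 of 494 exons (1.0%), searched on the strand of the gene only. The last base of an exon before an intron was G in 40.9% and A in 29.4%. Pooled GC content was 40.6% in the longest exons, 39.5% in the other exons and 33.2% in the introns.

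Read density differed with exon length. Exons of 10 to 29 bases had a pooled density of 43.2 and 35.0 CPM per kilobase in the deletion libraries and 37.8 and 33.2 in the wild-type libraries. CPM are counts per 1000000 reads of the TMM-adjusted gene total of a library. Exons of 200 to 499 bases had 1620 and 1644 CPM per kilobase in the deletion and 1871 and 1953 in the wild type. The longer class was far denser in every library. The relation was not a steady one. Exons of 30 to 99 bases had a pooled density of 385 and 391.5 CPM per kilobase in the deletion and 457 and 453 in the wild type. That was more in every library than in exons of 500 bases or more, pooled at 337 and 339.6 CPM per kilobase in the deletion and 384 and 361 in the wild type. The median over single exons ran the other way in every library. It was 23.3 and 25.7 CPM per kilobase in the deletion and 21.1 and 29.0 in the wild type for 30 to 99 bases. For 500 bases or more it was 54.1 and 58.3 in the deletion and 55.8 and 52.5 in the wild type. Densities differ between genes as well as between lengths, so the comparison was repeated inside genes with enough reads. In 46 genes with 2 exons of which the shorter had under 100 bases, the density of the shorter exon relative to the longer one had a median log2 ratio of -1.09 and -1.64 in the deletion and -1.56 and -1.34 in the wild type. In 21 genes where the shorter exon had 100 bases or more, the median log2 ratio was -0.79 and -0.57 in the deletion and -0.69 and -0.88 in the wild type. The shorter exon was the sparser one on the median in both classes, and the libraries of the genotypes overlapped in both. The part played by read length and by the alignment of reads across junctions was not tested.

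**Figure D1:**
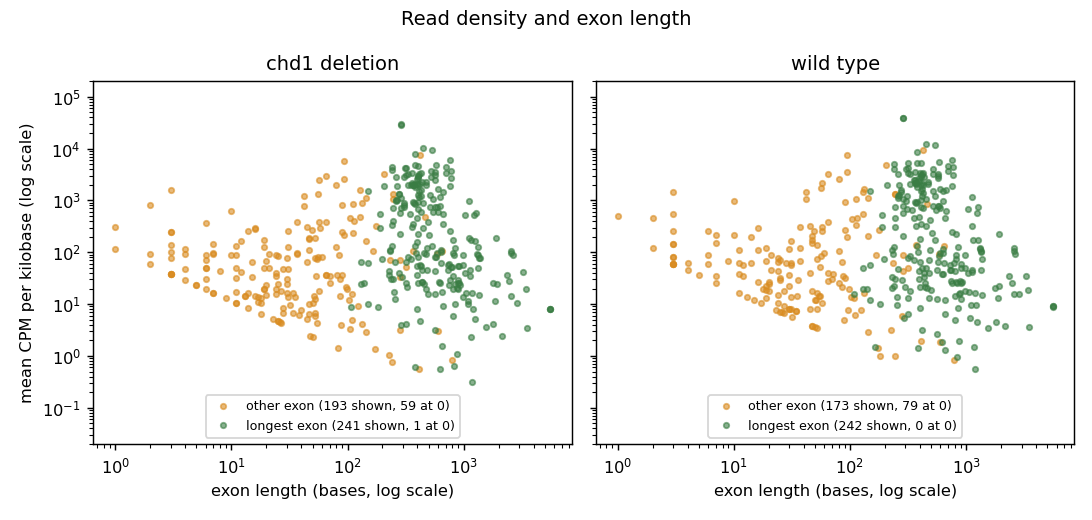
Read density of each exon (mean CPM per kilobase over 2 libraries, log scale) against its length in bases (log scale), in the chd1 deletion (left) and the wild type (right). Each point is 1 exon, green for the longest exon of a gene and orange for the others; exons with a mean of 0 cannot be drawn and are counted in the legend, and in both genotypes the exons of 10 to 29 bases are sparser than those of 200 to 499.

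Many short exons were not seen at this depth. Reads fell on 418 and 384 of the 494 exons in the deletion libraries and on 384 and 393 in the wild-type libraries. At least 10 reads fell on 299 and 286 exons in the deletion and on 268 and 278 in the wild type. In all 4 libraries 43 exons had 0 reads, 31 of them under 30 bases, and a count of 0 allows up to 3 reads. The 1-base exons of RPL20A and RPL20B were among them, although exon 2 of RPL20A had 6296 and 4023 reads in the deletion and 3425 and 4648 in the wild type. The 19-base first exon of YRF1-3, a subtelomeric helicase gene with the longest coding exon of the set (5561 bases), also had 0 reads in all libraries. Its second exon had 210 and 104 reads in the deletion and 103 and 135 in the wild type, and is shared with near-identical copies, so its reads may come from any of them. The gene with the fewest reads was SAE3, a meiotic recombination gene, with 1 read in all 4 libraries together.

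Between the genotypes, few exons differed, and those that did were mostly lower in the deletion. Of 284 exons with enough reads to test, 27 fell and 2 rose in the deletion at an adjusted p under 0.05 (edgeR's quasi-likelihood test, Benjamini-Hochberg over all 397 features tested), in 23 genes. Over all features of the intron tables, introns included, 10.8% passed, 0.504% higher and 10.3% lower. The exons passed at 10.2%, and 9.51% were lower, so their shares were close to that background, of which they are the larger part. The 27 lower exons had log2 fold changes of -0.89 to -0.30, deletion over wild type, and no called exon changed by as much as 2-fold. At an unadjusted p under 0.05 there were 62 exons, 9 of them higher. The median log2 fold change of all 284 exons was -0.06. The CPM of the genotypes did not overlap in 55 of the 284 exons with the deletion higher and in 96 with it lower, the 29 called exons among them. Over all features tested, 17.1% were apart with the deletion higher and 35.5% with it lower. Of the 225 longest exons tested, 20 fell and 2 rose, and of the 59 other exons tested, 7 fell and 0 rose.

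The calls rest on all 4 libraries. Without deletion replicate 1, and likewise without deletion replicate 2, edgeR called 0 of the exons, with 29 and 20 at an unadjusted p under 0.05, so none of the 29 exons below was called without either of these libraries. Without wild-type replicate 1 there were 25 calls, and without wild-type replicate 2 there were 14. Scaling by total gene counts in place of TMM moved the median of all exons by 0.11 on the log2 scale and gave 3 higher and 10 lower exons. DESeq2 gave 1 higher and 11 lower, limma-voom 2 and 21, and the authors' library constants 1 and 3. Only exon 2 of COX5B and both exons of IMD4 were called under every tool, scaling and filter tried with all 4 libraries. COX5B lost its call when any 1 of the 4 libraries was left out, and the exons of IMD4 when either deletion library was. edgeR estimated 1 common spread for features of like abundance, with no weight on the spread of the single exon, so an exon with uneven libraries can pass.

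**Figure D2:**
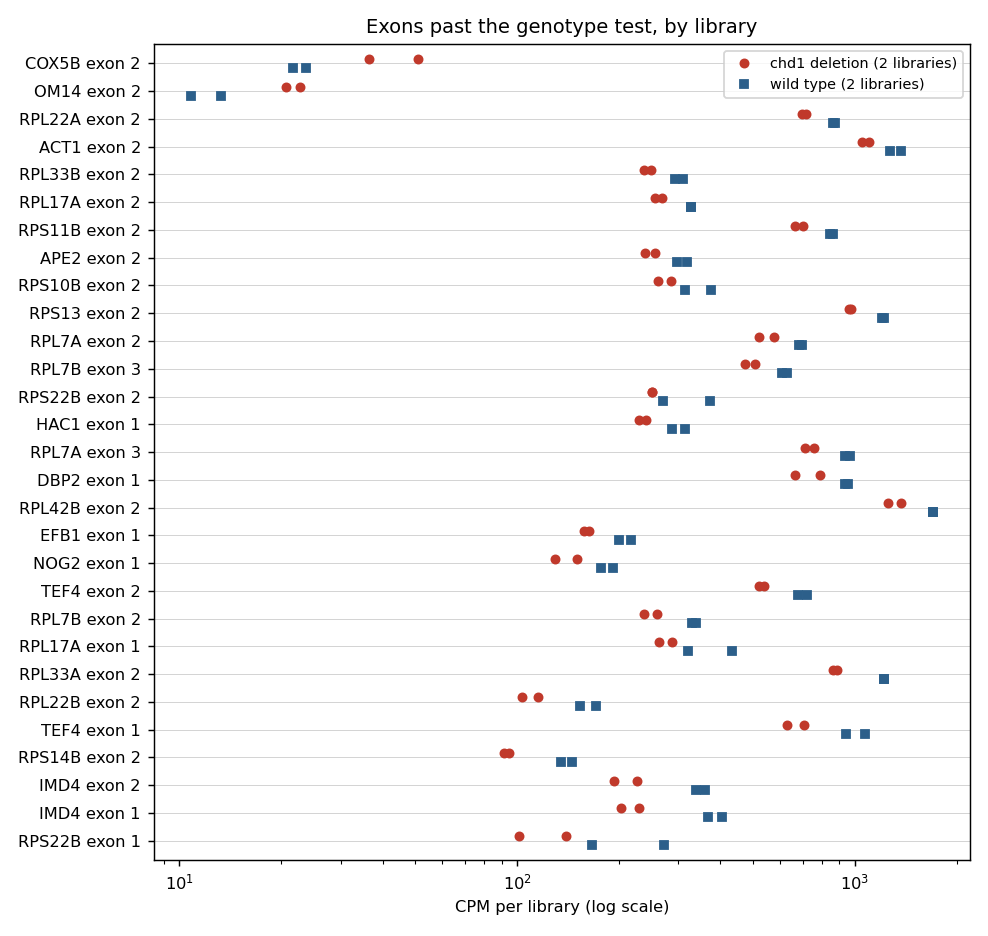
CPM per library (log scale) of the 29 exons past the genotype test, with the deletion libraries as red circles and the wild-type libraries as blue squares, 2 of each. Rows run by log2 fold change, with the 2 higher exons (COX5B, OM14) at the top and the lowest, RPS22B exon 1, at the bottom; the colours do not overlap in any row.

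Exons of genes that carry a small nucleolar RNA (snoRNA) inside an intron were lower together. Such an RNA guides the chemical modification of ribosomal RNA and is cut out of the intron after splicing. The annotation places one in an intron of 8 of the 242 genes, a grouping made with results of these data known. Of their 18 exons 16 were tested, 12 fell, in 7 genes, and 0 rose. That is 75%, against 15 lower exons of 268 (5.6%) in the other genes, beside the background of 10.3%. The median log2 fold change of the 16 was -0.38, and in the other genes it was -0.04. All 16 had both deletion libraries below both wild-type libraries, as did 35.5% of all features tested. Their fold change was below 0 under every tool, scaling, filter and left-out library tried, and the number called lower ranged widely, with 6 in DESeq2, 6 with total gene counts, 3 with the authors' constants and 0 when either deletion library was left out.

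IMD4, which encodes an IMP dehydrogenase of guanine nucleotide synthesis and holds SNR54, had the next-lowest exons after exon 1 of RPS22B. Its exon 1 had 229 and 203 CPM in the deletion and 404 and 369 CPM in the wild type, a log2 fold change of -0.83 ± 0.11 (SE; edgeR adjusted p = 2.92e-12). Its exon 2 had 227 and 193 CPM in the deletion and 360.1 and 339 CPM in the wild type, a log2 fold change of -0.73 ± 0.11 (adjusted p = 2.30e-09). The exons thus fell by like amounts. The intron between them, which includes the snoRNA, had 659.8 and 588 CPM in the deletion and 1184 and 1849 CPM in the wild type (-1.28 ± 0.11, adjusted p = 7.15e-29). The gene as a whole fell by 1.09 on the log2 scale, more than either exon and less than the intron. Whether the gene count takes in the intron is not given in the sources used here. The exon ends that flank this intron are, with exon in capitals,
IMD4 exon 1 end: TCCCAGTTACTGgtatgttataat
IMD4 exon 2 start: ttttgaacacagAAGACGGTAAGT
from exons at chrXIII:163717-164176 and chrXIII:162194-163308 on the minus strand.

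RPS22B, a small-subunit ribosomal protein gene that holds SNR44, had the largest decrease of any called exon and also the least even libraries. Its exon 1 had 102 and 139.6 CPM in the deletion and 167 and 272 CPM in the wild type (-0.89 ± 0.12, adjusted p = 8.11e-11). DESeq2 did not call it, and without wild-type replicate 2 the value was -0.48 (edgeR adjusted p = 0.177). Its exon 2 had 250.2 and 252 CPM in the deletion and 372 and 270.0 CPM in the wild type (-0.35 ± 0.11, adjusted p = 0.0166). For exon 2 the value was -0.11 without wild-type replicate 1 (edgeR adjusted p = 0.635) and -0.56 without wild-type replicate 2 (0.0203), and DESeq2 and limma-voom did not call it. The wild-type replicates differed most, and in opposite directions on the 2 exons. Replicate 2 was the higher one on exon 1 and the lower one on exon 2. As a share of the reads of the gene, exon 1 took 28.9% and 35.7% in the deletion and 31.0% and 50.2% in the wild type.

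TEF4, the gamma subunit of translation elongation factor 1B, holds SNR38. Its exon 1 had 709 and 629 CPM in the deletion and 1068 and 943 CPM in the wild type (-0.59 ± 0.10, adjusted p = 8.63e-07), and its exon 2 had 537 and 519.9 CPM in the deletion and 679.8 and 719.9 CPM in the wild type (-0.40 ± 0.10, adjusted p = 0.00141). Its intron had 27.2 and 38.4 CPM in the deletion and 33.6 and 49.7 CPM in the wild type, overlapping ranges that did not pass the test. EFB1, the alpha subunit of the same factor, holds SNR18 and was named here after its values were seen. Its exon 1 fell (-0.38 ± 0.12, adjusted p = 0.0166) and its exon 2 did not pass (-0.20 ± 0.10, adjusted p = 0.20), while its intron had the opposite sign (0.27 ± 0.13, adjusted p = 0.182). DESeq2 and limma-voom did not call exon 1 of EFB1.

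ASC1, the yeast RACK1 protein of the small ribosomal subunit, holds SNR24 and had the most exon reads of the 8 genes. Exon 1 had 5168 and 5000 CPM in the deletion and 6907 and 5402 CPM in the wild type (-0.28 ± 0.14, adjusted p = 0.20), and exon 2 had 3137 and 3107 CPM in the deletion and 4268 and 3483 CPM in the wild type (-0.31 ± 0.12, adjusted p = 0.0904). Neither passed, and the 2 wild-type libraries lay farther apart than wild-type replicate 2 lay from the deletion. NOG2, a GTPase of large-subunit assembly that holds SNR191, fell on exon 1, with 150.1 and 129.9 CPM in the deletion and 177 and 193 CPM in the wild type (-0.40 ± 0.12, adjusted p = 0.0166). Its exon 2 did not pass (-0.30 ± 0.16, adjusted p = 0.266). DESeq2 and limma-voom did not call exon 1 of NOG2.

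**Figure D3:**
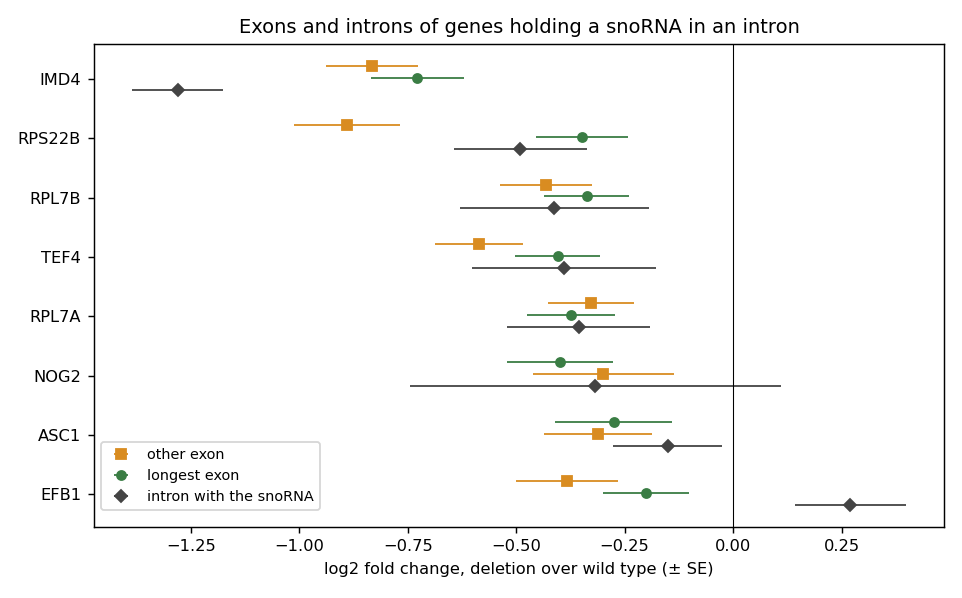
Log2 fold change, deletion over wild type, with its standard error, for the tested exons (green circle, longest; orange square, other) and the snoRNA-bearing intron (grey diamond) of 8 genes. The 16 exons lie between -0.89 and -0.20, all left of 0, whereas the introns run from -1.28 in IMD4 to 0.27 in EFB1.

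RPL7A and RPL7B are paralogs that encode the same large-subunit protein, and each has 3 exons and a snoRNA in its second intron (SNR39 and SNR59). Exon 2 of RPL7A had 577 and 519.9 CPM in the deletion and 697 and 682 CPM in the wild type (-0.33 ± 0.10, adjusted p = 0.0155), and exon 3 fell by a like amount (-0.37 ± 0.10, adjusted p = 0.00481). Exon 2 of RPL7B had 237 and 259 CPM in the deletion and 330.0 and 338 CPM in the wild type (-0.43 ± 0.11, adjusted p = 0.00145), and exon 3 followed (-0.34 ± 0.10, adjusted p = 0.0112). The same-numbered exons of both paralogs moved in 1 direction and by similar sizes. The third exons are 98.6% identical, and how reads that match both copies were counted is not given. Their values may therefore not be independent. The 11-base first exon had at most 3 reads in a library in RPL7A and at most 6 in RPL7B, and was not tested. The second exons differ at 13 of 94 bases (86.2% identity), shown in capitals.
RPL7A exon 2: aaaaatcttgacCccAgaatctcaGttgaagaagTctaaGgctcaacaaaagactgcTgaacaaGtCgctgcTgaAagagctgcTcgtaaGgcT
RPL7B exon 2: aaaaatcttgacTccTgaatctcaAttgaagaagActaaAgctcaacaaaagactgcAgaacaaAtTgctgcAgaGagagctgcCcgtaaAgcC
They lie at chrVII:365433-365526 on the minus strand and chrXVI:173572-173665 on the plus strand.

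Ribosomal protein genes gave 90 of the 242 genes and took 88.8% and 89.2% of exon reads in the deletion and 88.9% and 89.3% in the wild type. Their exons leaned slightly lower. Of 123 tested exons in both subunits 17 fell (13.8%, beside 10.3% of all features tested), in 13 genes, and 0 rose. Their median log2 fold change was -0.11, beside -0.06 over all exons. The 161 tested exons of other genes held 10 that fell (6.21%) and 2 that rose, with a median of 0.01. With total gene counts as scaling, these medians became -0.01 and 0.12. Relative to the median of all exons under the same scaling, the ribosomal protein exons lay 0.05 lower either way. Leaving out the 4 ribosomal protein genes that hold a snoRNA left 115 tested exons, of which 11 fell (9.57%). The 10.3% of all features tested still includes the snoRNA-bearing genes. Over all genes without a snoRNA in an intron, 15 of 268 tested exons fell (5.6%), most of them these 11.

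The large subunit had 73 tested exons, of which 11 fell in 8 genes (15.1%, beside 10.3% of all features tested), with a median of -0.11. RPL22B had the lowest of them, with 104 and 115 CPM on exon 2 in the deletion and 171 and 154 CPM in the wild type (-0.57 ± 0.13, adjusted p = 6.39e-04). RPL33A exon 2 had 888 and 864 CPM in the deletion and 1218 and 1221 CPM in the wild type (-0.48 ± 0.10, adjusted p = 2.60e-04). The libraries of each genotype lay close together in both genes. In RPL17A, both exons fell, exon 1 with 288 and 263 CPM in the deletion and 321 and 432 CPM in the wild type (-0.45 ± 0.10, adjusted p = 6.39e-04) and exon 2 by less (-0.32 ± 0.11, adjusted p = 0.0310). Without wild-type replicate 2 the value of exon 1 was -0.21 (edgeR adjusted p = 0.268), and DESeq2 called neither exon. RPL42B exon 2 had 1250 and 1365 CPM in the deletion and 1699 and 1707 CPM in the wild type (-0.38 ± 0.11, adjusted p = 0.00823). With total gene counts the value was -0.28 (edgeR adjusted p = 0.0698). This exon is 98.1% identical to that of its paralog RPL42A, so the level of each copy is uncertain. RPL42A as a whole gene did not pass (-0.09, edgeR adjusted p = 0.647). RPL22A and RPL33B, the paralogs of RPL22B and RPL33A, passed more narrowly, with log2 fold changes of -0.30 and -0.31 and adjusted p of 0.0350 and 0.0429, which with total gene counts became -0.19 and -0.20 (edgeR adjusted p = 0.242 and 0.283).

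The small subunit had 50 tested exons, of which 6 fell in 5 genes, with a median of -0.12. That share, 12%, was near the 10.3% of all features tested. Besides RPS22B these were single exons of RPS14B, RPS11B, RPS13 and RPS10B. RPS14B exon 2 had 91.5 and 94.8 CPM in the deletion and 145 and 135 CPM in the wild type (-0.59 ± 0.14, adjusted p = 7.93e-04). Its protein is known to bind its own transcript and hold back splicing of the RPS14B intron, which begins as shown, with the whole 10-base exon 1 in capitals.
RPS14B exon 1: ATGGCTAACGgtacgtgaaagg
That exon, at chrX:73787-73796, had 6 and 1 reads in the deletion and 5 and 5 in the wild type, too few to test. The exons of RPS11B, RPS13 and RPS10B each had a log2 fold change of -0.32, with adjusted p of 0.0195, 0.0226 and 0.0250. That of RPS10B was -0.19 without wild-type replicate 1. With total gene counts RPS11B, RPS13 and RPS10B had -0.21, -0.22 and -0.22 (edgeR adjusted p = 0.189, 0.1845 and 0.242). DESeq2 called none of these exons.

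RPL14A and RPL14B, paralogs of the large subunit, had the most exon reads of all. The pair took 13.2% and 14.6% of exon reads in the deletion and 12.4% and 19.8% in the wild type. Exon 2 of RPL14A had 34917 and 24309 reads in the deletion and 17684 and 39097 in the wild type, which is 8126 and 9073 CPM against 8724 and 14070 CPM. The genotypes overlapped, since only wild-type replicate 2 stood high, and the difference did not pass (-0.41, adjusted p = 0.0625). Exon 2 of RPL14B had nearly the same counts in each library, 33616 and 23576 in the deletion and 17152 and 37733 in the wild type (adjusted p = 0.0611). Its first exon, however, had 62.3 ± 12.1 CPM in the deletion and 70.7 ± 9.97 CPM in the wild type, against 204.8 ± 16.2 and 185 ± 9.63 CPM for exon 1 of RPL14A (SD, n = 2 each). Exon 2 was the denser exon by far, at 29860 and 39580 CPM per kilobase in deletion and wild type for RPL14A, against 1587 and 1437 for its exon 1. The second exons differ at only 4 of 288 bases (98.6% identity), shown in capitals.
RPL14A exon 2: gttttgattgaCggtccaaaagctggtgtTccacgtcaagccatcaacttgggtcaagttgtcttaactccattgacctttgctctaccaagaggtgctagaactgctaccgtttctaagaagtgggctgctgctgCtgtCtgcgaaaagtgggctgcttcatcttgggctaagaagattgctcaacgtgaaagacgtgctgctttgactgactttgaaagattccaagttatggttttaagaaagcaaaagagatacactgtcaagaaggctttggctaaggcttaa
RPL14B exon 2: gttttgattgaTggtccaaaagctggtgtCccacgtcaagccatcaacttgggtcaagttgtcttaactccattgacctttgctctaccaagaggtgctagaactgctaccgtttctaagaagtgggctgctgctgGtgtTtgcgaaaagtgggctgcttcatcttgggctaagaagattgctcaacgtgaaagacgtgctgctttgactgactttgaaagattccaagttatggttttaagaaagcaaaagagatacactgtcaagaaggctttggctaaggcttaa
They lie at chrXI:432433-432720 and chrVIII:104804-105091, both on the plus strand. How reads that match both copies were counted is not given in the sources used here, so the level of each copy is uncertain. Over the 41 pairs of ribosomal protein paralogs in the set, the aligned longest exons were 78.4% to 99.2% identical, with a median of 93.9%.

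The 2 exons that rose belong to genes for mitochondrial proteins. COX5B encodes subunit Vb of cytochrome c oxidase, the form of subunit V made at low oxygen, and its exon 2 had 36.5 and 50.8 CPM in the deletion and 21.7 and 23.8 CPM in the wild type (0.91 ± 0.23, adjusted p = 0.00179). OM14 encodes a protein of the mitochondrial outer membrane, and its exon 2 had 20.7 and 22.8 CPM in the deletion and 13.3 and 10.8 CPM in the wild type (0.86 ± 0.29, adjusted p = 0.0350). The OM14 counts were low, at 89 and 61 reads in the deletion and 27 and 30 in the wild type. Next in the order of p among higher exons stood the 16-base exon 1 of RPL36B, with 20 and 12 reads in the deletion and 5 and 3 in the wild type, which did not pass (1.44 ± 0.54, adjusted p = 0.0634). The list of mitochondrial and respiratory genes had 5 tested exons, of which COX5B alone passed, and a median of 0.36.

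Outside the ribosomal protein and mitochondrial lists, the share of exons that fell was near or under the 10.3% of all features tested. The list of RNA processing and export had 16 tested exons with 2 that fell (12.5%), NOG2 exon 1 and exon 1 of DBP2, and a median of 0.04. DBP2, an RNA helicase, had 786 and 663 CPM on exon 1 in the deletion and 957 and 933 CPM in the wild type (-0.38 ± 0.10, adjusted p = 0.00404), and its exon 2 had a similar value without passing (-0.38 ± 0.20, adjusted p = 0.236). The cytoskeleton list had 12 tested exons with 1 that fell (8.33%), exon 2 of ACT1, at 1098 and 1051 CPM in the deletion and 1268 and 1374 CPM in the wild type (-0.30 ± 0.10, adjusted p = 0.0436), a value of -0.19 with total gene counts (edgeR adjusted p = 0.242). The 10-base exon 1 of ACT1 had 24 and 19 reads in the deletion and 19 and 28 in the wild type (-0.66 ± 0.35, adjusted p = 0.266). No exon passed in the lists of secretion and vesicle traffic (20 tested, median 0.01), ubiquitin and proteasome (12 tested, median 0.21) or meiosis (7 tested, median -0.05), where edgeR gave 0, 0 and 2 at an unadjusted p under 0.05, and limma-voom and DESeq2 called 0 of them as well. HAC1 exon 1 had 241 and 229 CPM in the deletion and 314 and 287 CPM in the wild type (-0.35 ± 0.11, adjusted p = 0.0166), and its 56-base exon 2 had a like value without passing (-0.41 ± 0.16, adjusted p = 0.0669). APE2, an aminopeptidase gene named after its values were seen, passed on exon 2 (-0.32 ± 0.11, adjusted p = 0.0310). DESeq2 and limma-voom called neither exon 1 of HAC1 nor exon 2 of APE2. The genes in no list had 89 tested exons, of which 7 fell (7.87%) and 1 rose, with a median of 0.00. Besides those of HAC1 and APE2, the 7 lower exons were those given above for the snoRNA-bearing genes IMD4, TEF4 and EFB1.

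Other genes whose splicing is well studied had exons that did not pass. YRA1, an mRNA export factor, had 164 and 191 CPM on exon 2 in the deletion and 205 and 182 CPM in the wild type (-0.13 ± 0.12, adjusted p = 0.606). RPL30, whose protein binds its own transcript, had 1309 and 1290 CPM on exon 2 in the deletion and 1448 and 1239 CPM in the wild type (-0.05 ± 0.11, adjusted p = 0.833). TUB1, the main alpha-tubulin gene, had 172 and 165 CPM on exon 2 in the deletion and 152 and 157 CPM in the wild type (0.13 ± 0.12, adjusted p = 0.618). Their standard errors were small beside the changes measured on the exons of IMD4.

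At the level of genes, 234 of the 242 were tested in the gene tables and 15 changed, 13 lower and 2 higher in the deletion. That is 6.41%, with 5.56% lower, beside 4.74% of all genes tested in those tables, 1.68% higher and 3.06% lower. All 15 had at least 1 called exon, and 21 of the 29 called exons lay in them. In 6 genes 2 exons were called, and in 4 of these every exon was. Those 4 were IMD4, TEF4, RPS22B and RPL17A.

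The 10 genes with 3 exons were mostly too weakly covered to follow exon by exon. Of their 30 exons 14 were tested, and the 4 that fell (28.6%, beside 10.3% of all features tested) were those of RPL7A and RPL7B. SUS1, which encodes a shared subunit of a histone deubiquitinase and an mRNA export complex, had 10 and 7 reads on exon 1, 13 and 11 on exon 2 and 48 and 24 on exon 3 in the deletion. In the wild type it had 3 and 11 reads on exon 1, 6 and 7 on exon 2 and 17 and 23 on exon 3. Exon 3, the only one tested, did not pass (0.30 ± 0.34, adjusted p = 0.650). HMRA1, the copy of the a1 mating-type gene at the silent HMR locus, had 204 and 128 reads on exon 1 in the deletion and 101 and 117 in the wild type (0.06 ± 0.20, adjusted p = 0.907). BY4741 is of mating type a and carries the same gene at the active MAT locus, so the reads of both loci cannot be told apart. Its 105-base exon 1 was denser than its 246-base exon 2, which had 30 and 22 reads in the deletion and 16 and 19 in the wild type. YOS1, a gene of transport between the endoplasmic reticulum and the Golgi, likewise had most of its reads on exon 1, with 92 and 53 in the deletion and 41 and 45 in the wild type, and few on its longest exon of 108 bases, with 5 and 2 in the deletion and 4 and 4 in the wild type. In DYN2, EFM5, VMA9 and TAD3, the tested exons had log2 fold changes of 0.01 to 0.47 and none passed. HOP2, a meiotic gene, had no tested exon and at most 6 reads on any exon in a library.

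The longest exon was next compared with the other exons of the same gene. The question was whether both parts of a transcript changed alike. In 74 genes with at least 20 reads on both parts, 40 of them ribosomal protein genes, edgeR's test of part by genotype called 0 genes (0% of those tested), with 5 at an unadjusted p under 0.05. Limma-voom called 0, with 4 unadjusted, and the differential splicing test of edgeR (diffSpliceDGE) called 0, with 2. The difference in log2 fold change, longest minus other exons, had a median of -0.04, and 69 of 74 values lay within 1 of 0. The median standard error was 0.29, with a range of 0.14 to 0.99, so a difference of 2-fold would stand out in well-covered genes and would be missed in others. For IMD4 the difference was 0.10 ± 0.14 and for ASC1 0.04 ± 0.15, among the most precise of the set.

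The 3 genes with the smallest p all encode large-subunit proteins and all have a short first exon with few reads. In RPL36B the first exon took 1.41% and 1.36% of exon reads in the deletion and 0.799% and 0.344% in the wild type, a difference of -1.36 ± 0.41 (edgeR adjusted p = 0.447). In RPL27A it took 0.602% and 0.546% in the deletion and 0.367% and 0.158% in the wild type (-1.22 ± 0.45, adjusted p = 0.447). In RPL16A it took 1.81% and 1.88% in the deletion and 1.31% and 0.857% in the wild type (-0.79 ± 0.29, adjusted p = 0.447). The genotypes did not overlap in these 3 genes, which the choice by p fixes, and the first exons had 3 to 34 reads a library. RPS22B differed the other way, at 0.53 ± 0.29 (adjusted p = 0.853). Without wild-type replicate 1, 4 genes were called. The same test with the first exon against the rest, run in 70 genes, called 0 (0%) with 5 at an unadjusted p under 0.05, and limma-voom called 0 with 5. The same 3 genes had the smallest p there (adjusted p = 0.485), and 4 genes were called without wild-type replicate 1.

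**Figure D4:**
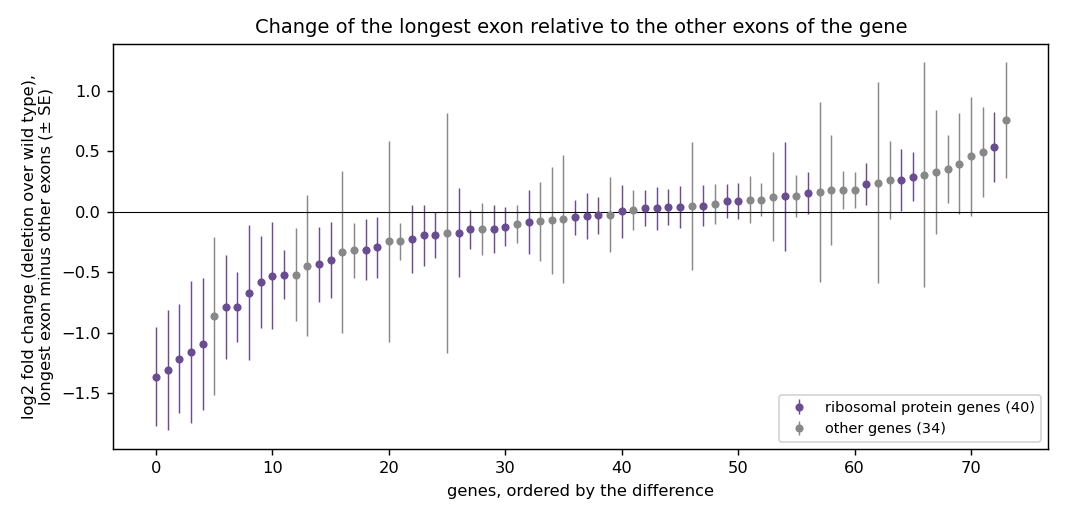
Difference in log2 fold change (deletion over wild type) between the longest exon and the other exons of a gene, with its standard error, for 74 genes in order of the difference; purple, 40 ribosomal protein genes, and grey, 34 other genes. Values run from -1.36 to 0.76, most error bars at the low end are wide, and no gene passed the test.

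Pooled over all genes, reads outside the longest exon were a small part. They made up 6.23% (95% Wilson interval 6.17 to 6.30) and 6.06% (5.98 to 6.14) of exon reads in the deletion, and 6.95% (6.86 to 7.04) and 6.33% (6.26 to 6.41) in the wild type. The intervals cover counting error only. The means were 6.15% ± 0.12 in the deletion and 6.64% ± 0.44 in the wild type (SD, n = 2 each), a difference of -0.50 percentage points. The 2-sided exact permutation test gave p = 0.333, the smallest that 2 libraries against 2 can give. The genotypes did not overlap, although deletion replicate 1 and wild-type replicate 2 lay close together.

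The pooled share was set by few genes. The 8 genes with a snoRNA in an intron held 68.5% and 67.8% of all reads outside the longest exon in the deletion and 73.9% and 71.5% in the wild type, ASC1 alone 41.1% and 41.4% in the deletion and 43.7% and 39.0% in the wild type. Without these 8 genes, a choice made after seeing the data, the share was 2.21% and 2.18% in the deletion and 2.08% and 2.03% in the wild type, a difference of 0.14 points in the opposite direction (exact permutation p = 0.333). Inside the 8 genes, it was 39.1% and 39.2% in the deletion and 40.4% and 40.9% in the wild type. Without RPL14A and RPL14B, also left out after seeing the data, the share was 6.93% and 6.85% in the deletion and 7.74% and 7.66% in the wild type. In genes other than ribosomal protein genes it was 12.2% and 11.7% in the deletion and 14.7% and 14.1% in the wild type, a difference of -2.47 points (exact permutation p = 0.333). This set keeps the snoRNA-bearing genes IMD4, TEF4, EFB1 and NOG2. IMD4, a gene lower in the deletion, had a share of 50.2% and 51.3% in the deletion and 52.8% and 52.1% in the wild type. How far lower levels of such genes account for the difference was not tested. In ribosomal protein genes the share was 5.48% and 5.38% in the deletion and 5.98% and 5.40% in the wild type (-0.26 points, exact permutation p = 0.667).

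**Figure D5:**
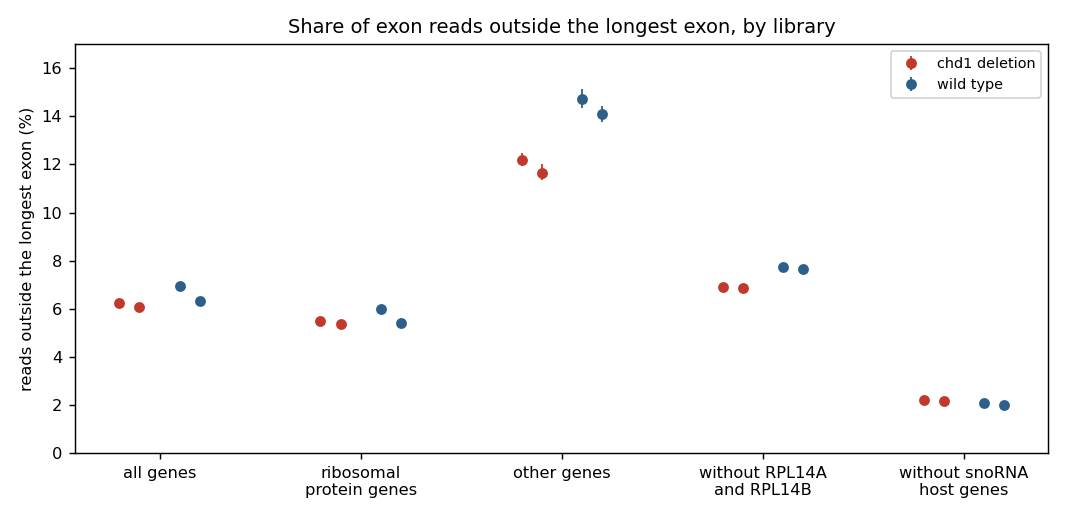
Reads outside the longest exon as a percentage of exon reads, 1 point per library with its 95% Wilson interval, for the deletion (red) left of the wild type (blue) in each set of genes. The deletion lies lower over all genes and in genes other than ribosomal protein genes, and slightly higher once the 8 genes with a snoRNA in an intron are left out.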

How the data were processed

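Per the labels' protocols, total RNA of both genotypes was extracted with hot acid phenol and sequenced on a HiSeq instrument. CASAVA 1.8, TopHat and the build sacCer3 appear, with no role stated, in the submitters' processing notes. For the counting program, its annotation, strand setting and handling of multiply matching reads, nothing is given in the sources used here. The authors deposited, per the file headers, whole-number read counts (RdNum) per gene and per intron-table stretch. The authors also deposited a normalized signal column, equal to the count per length over 1 constant per library, used only in an alternative scaling.

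Stretches were chained by abutting ends and matched exactly to R64. Counts of all 793 stretches were tested with edgeR 4.0.16 in R 4.3.3 (glmQLFit, glmQLFTest), with library sizes and TMM factors (1.04 and 1.03 for the deletion, 0.945 and 0.984 for the wild type) from the gene tables, a design of genotype alone, filterByExpr set to keep features near 10 counts or more, and a threshold of 0.05 after Benjamini-Hochberg adjustment. The longest-exon and first-exon tests were interactions over 8 columns per gene with library as a block. Each SE printed is the absolute log2 fold change divided by the square root of the F statistic of the edgeR test. DESeq2 1.42.0, limma 3.58.1, other scalings and filters, exons alone, a replicate block and leaving out each library were tried. Shares have Wilson intervals at 95% (statsmodels 0.14.6). GC content, motifs and paralog alignments came from the RefSeq R64 genome (Biopython 1.88).

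Named exons were, in each direction, the 10 with the largest change among those past the threshold with no overlap of CPM, or the 3 with the smallest p if fewer than 3 passed, plus members of the lists that passed, genes of 3 exons, the longest and shortest exons, the genes with the most and fewest reads, the 3 smallest p of the part tests, and well-studied genes. Members, lists and tests were chosen with earlier results of these data known.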

Additional observations from a re-analysis of the deposited data

How the results depend on the processing

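The count of 29 changed exons (2 higher, 27 lower) became 13 with total gene counts (10 lower), 4 with the authors' constants (1 higher, 3 lower), 12 in DESeq2 (1 higher, 11 lower), and 0 to 25 when each library was left out in turn, with 0 to 1 higher and 0 to 24 lower. It was 23 in limma-voom, 20 with no filter, 31 with the stricter filter and 32 with exons alone. No called exon changed sign. Of the 29, 20 remained in limma-voom, 12 in DESeq2, 12 with total gene counts and 4 with the authors' constants. Where 1 deletion library was left out, the spread came from the wild-type pair alone and the lone library was assumed to vary like them; the cause of the lost calls was not tested. Deviations of replicates numbered 1 from their genotype means had a correlation of 0.162 between genotypes, and the labels do not pair the numbers. A replicate block gave 20 changed exons (1 higher, 19 lower) and left both part tests at 0. Those part tests gave 0 under every alternative with all 4 libraries and 0 to 4 with 1 library left out. The difference in the share outside the longest exon was -0.50 points, and became -2.47 without ribosomal protein genes, 0.042 as a median over genes, 0.14 without the snoRNA-bearing genes, and -0.80 to -0.19 with 1 library left out. With 2 libraries a genotype and 210 exons too thinly covered to test, 193 of them outside the longest exon, small exons remain unmeasured.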
